A study of Mus musculus with 10 samples.

Results

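The 7 genes described here encode the corticosteroid receptors, an enzyme that supplies their ligand and the cochaperones that hold the receptors ready for hormone. They were chosen by name (Nr3c1, Nr3c2, Hsd11b1, Fkbp5, Fkbp4, Ptges3 and Stip1), each symbol matched 1 row of the deposited matrix of 56691 genes, and all 7 passed the filter on low values. RNA was sequenced from the medial habenula of wild-type mice, in 4 control libraries and 6 libraries from mice in nicotine withdrawal. The withdrawal mice were given 4 mg/kg of nicotine ditartrate by the intraperitoneal route in 2 injections daily over 14 days. Saline replaced nicotine on day 15, and tissue was taken on day 17. The control mice received intraperitoneal saline for 17 days. The number of daily injections in controls and the number of saline days in withdrawal are not given in the sources used here. Those sources also give no age, sex or time of day for either group.

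Corticosterone, the main glucocorticoid of the mouse, acts through the glucocorticoid receptor (Nr3c1) and the mineralocorticoid receptor (Nr3c2), ligand-activated transcription factors that bind the same DNA elements. Without ligand a receptor sits in a complex with HSP90, which is assembled through Stip1 and stabilised by the cochaperone p23 (Ptges3). The immunophilin FKBP51, the product of Fkbp5, lowers the receptor's affinity for hormone and slows its entry into the nucleus, whereas the related FKBP52, the product of Fkbp4, favours both. Fkbp5 is itself a well-known transcriptional target of the glucocorticoid receptor. In the brain the glucocorticoid receptor is widespread in neurons and glia, and the mineralocorticoid receptor is most abundant in hippocampal and other limbic neurons.

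The start regions of 4 members are shown because Fkbp5, Nr3c2 and Hsd11b1 carried the differences between the groups, and because Fkbp4 is the closest relative of Fkbp5 among the members. Each is the 250 bases before the RefSeq transcription start of the gene, build GRCm38.p6, read 5′ to 3′ on the gene's strand. Capitals mark matches, on either strand, to a CCAAT box (CCAAT), a GC box (GGGCGG) or the core of a heat shock element (GAANNTTC). The promoter set used here left out the chromosome of Nr3c1, so 6 of the 7 members had a window and Nr3c1 had none. The minus-strand window of Fkbp5 is chr17:28486150-28486399, that of Fkbp4 is chr6:128438657-128438906 and that of Hsd11b1 is chr1:193242361-193242610. The plus-strand window of Nr3c2 is chr8:76902080-76902329.
Fkbp5: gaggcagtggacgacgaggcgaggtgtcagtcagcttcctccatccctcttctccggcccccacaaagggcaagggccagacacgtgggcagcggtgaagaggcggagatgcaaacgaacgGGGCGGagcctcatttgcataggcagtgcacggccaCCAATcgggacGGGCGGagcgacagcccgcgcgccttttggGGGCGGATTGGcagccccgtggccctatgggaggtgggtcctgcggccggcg
Fkbp4: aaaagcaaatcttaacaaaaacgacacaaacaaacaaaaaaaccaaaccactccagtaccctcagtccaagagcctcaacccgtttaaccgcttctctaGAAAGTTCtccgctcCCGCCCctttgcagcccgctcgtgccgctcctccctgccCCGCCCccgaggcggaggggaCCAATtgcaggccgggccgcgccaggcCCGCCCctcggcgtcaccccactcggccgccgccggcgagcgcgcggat
Nr3c2: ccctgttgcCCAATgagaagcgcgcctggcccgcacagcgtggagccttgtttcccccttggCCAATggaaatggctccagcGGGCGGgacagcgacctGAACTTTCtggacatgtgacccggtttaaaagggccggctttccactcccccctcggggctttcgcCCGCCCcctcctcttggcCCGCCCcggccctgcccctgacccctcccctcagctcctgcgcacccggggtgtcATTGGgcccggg
Hsd11b1: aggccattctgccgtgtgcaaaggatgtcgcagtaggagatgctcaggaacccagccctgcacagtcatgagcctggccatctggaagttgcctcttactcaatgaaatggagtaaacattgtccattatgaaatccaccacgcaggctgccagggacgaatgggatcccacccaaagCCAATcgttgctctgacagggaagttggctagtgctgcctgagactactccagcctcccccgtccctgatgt

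The comparison set was 32851 mouse promoters of the same length, none on the chromosome of Nr3c1. A CCAAT box occurred in 33.8% of them, a GC box in 32.7% and the heat shock core in 6.69%. The Fkbp5 window held 3 GC boxes and 2 CCAAT boxes, with a GC box and an inverted CCAAT box directly adjoining in the longest run of capitals. Fkbp4 and Nr3c2 each held 1 heat shock core, and Hsd11b1 held only a CCAAT box among the motifs searched. The full glucocorticoid response element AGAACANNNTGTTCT, found in 0.00913% of all promoters, and the unit TGTTCT that it repeats, found in 16.1% and contained in the full element, were in none of the 6 matched windows. Neither was the longer heat shock element GAANNTTCNNGAA, which contains the core and was found in 0.466% of promoters. A TATA box (TATAAA), found in 12.4% of promoters, was present in the window of Stip1 alone among the 6. These matches describe letters in short windows and say nothing of binding elsewhere in the genes.

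Total counts ran from 15023448 to 22026333 per library, and the members had between 128 and 7357 counts each. The sample labels describe sorted cholinergic neurons, whereas the design text describes tissue. Astrocyte markers summed to between 2328 and 5361 CPM (counts scaled to the size of the library) in every library, and oligodendrocyte markers to between 5812 and 14443 CPM. Control 2 and withdrawal 2 stood apart from the other 8 libraries. Their 11 medial habenula markers summed to 41.5 and 251 CPM, against 1697 to 2392 CPM in the rest, and Chat, which encodes the enzyme that makes acetylcholine, had 3 counts in control 2 and 4 in withdrawal 2. Results are therefore given over all 10 libraries and over the 8 without this pair. Differences in such bulk RNA cannot tell fewer cells of a type from less RNA per cell.

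In nicotine withdrawal Fkbp5 was 3.23-fold lower over all 10 libraries, and it was the only member called by edgeR's quasi-likelihood test with Benjamini-Hochberg adjustment over all genes. That test called 31 of 14928 genes, or 0.208%, at an adjusted p under 0.05, with 26 of them lower (0.174%). Without control 2 and withdrawal 2, Fkbp5, Nr3c2 and Hsd11b1 were lower, 3 of the 7 members, in a comparison that called 2075 of 14993 genes (13.8%), 7.35% lower and 6.49% higher. The glucocorticoid receptor itself, Fkbp4, Ptges3 and Stip1 passed the threshold in neither comparison.

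**Figure D1:**
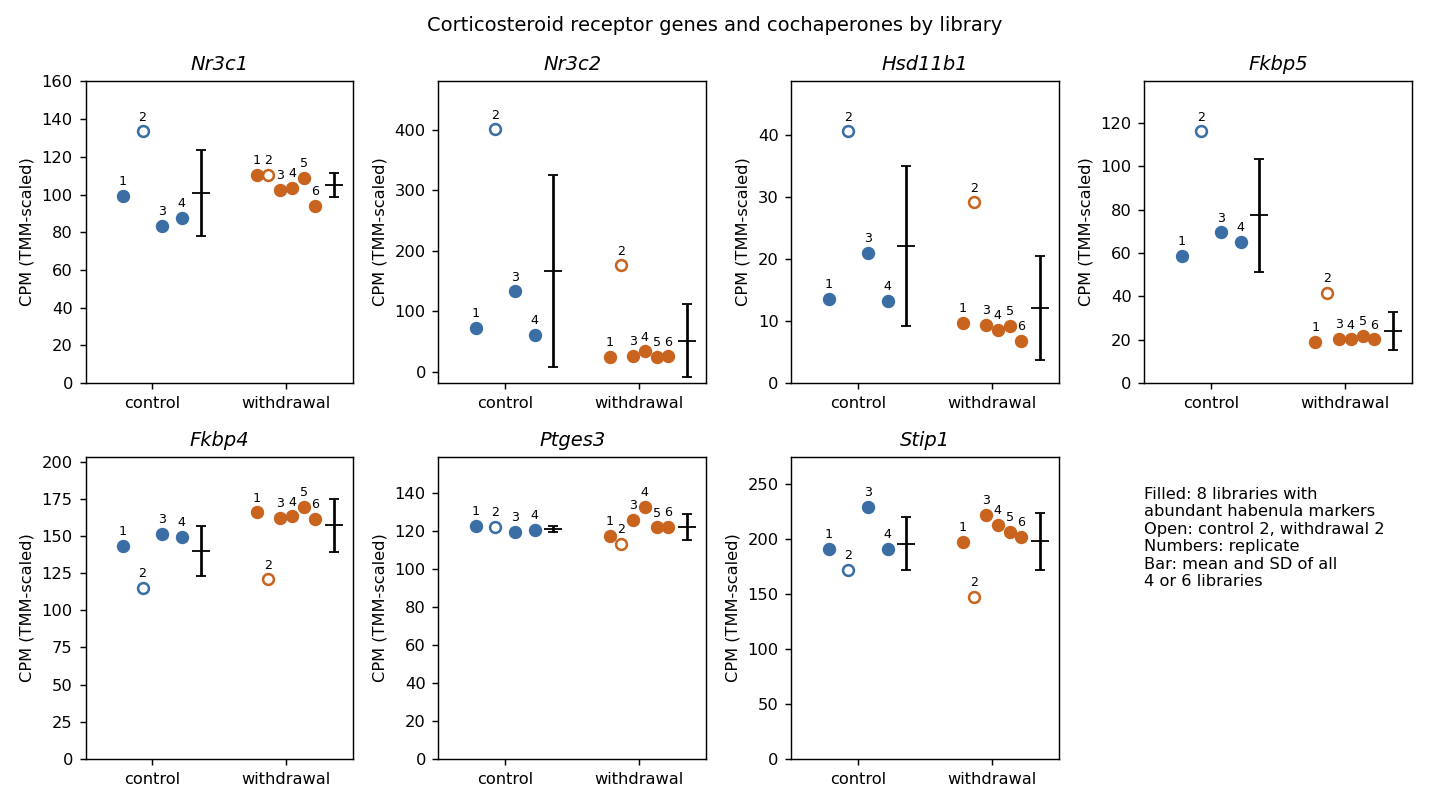
CPM (TMM-scaled, linear axes) of each member in the 4 control and 6 withdrawal libraries, numbered by replicate, with the mean and SD of all libraries of a group beside the points; control 2 and withdrawal 2 are open. The Fkbp5 groups are separate in all 10 libraries, the Nr3c2 and Hsd11b1 groups only when the open points are set aside.

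The glucocorticoid receptor gene Nr3c1 (ENSMUSG00000024431) was at similar levels in both groups. Its CPM were 99.1, 133, 83.2 and 87.8 in controls 1 to 4, and 110.3, 110.2, 103, 104, 109 and 93.9 in withdrawal libraries 1 to 6. Control 2 was the highest library and control 3 the lowest, so the withdrawal range lay inside that of the controls. The means were 101 ± 22.7 CPM (SD, n = 4) and 105 ± 6.35 CPM (n = 6), a log2 difference of 0.056 with a standard error of 0.125 (edgeR adjusted p = 0.844). Over the 8 libraries the means were 90.1 ± 8.20 (n = 3) and 104 ± 6.47 CPM (n = 5), with the groups still overlapping. The log2 difference of 0.20 ± 0.0728 (SE) there missed the threshold (edgeR adjusted p = 0.0943).

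The mineralocorticoid receptor gene Nr3c2 (ENSMUSG00000031618) varied more between libraries than any other member. It stood at 72.5, 401, 133 and 60.1 CPM in controls 1 to 4 and at 24.8, 176, 25.3, 33.3, 24.0 and 25.2 CPM in withdrawal libraries 1 to 6. Control 2 and withdrawal 2 were the highest of their groups, and withdrawal 2 exceeded 3 of the 4 controls. The means of 167 ± 159 (n = 4) and 51.4 ± 61.02 CPM (n = 6) gave a log2 difference of -1.70 ± 0.749 (SE), which was not called by edgeR (adjusted p = 0.319). Without that pair the lowest control, at 60.1 CPM, was above the highest withdrawal library, at 33.3 CPM, and 11.2% of all genes were lower without overlap in these 8 libraries. There the means were 88.5 ± 38.9 and 26.5 ± 3.83 CPM, and Nr3c2 was 3.35-fold lower (log2 difference -1.74 ± 0.227, edgeR adjusted p = 0.00287).

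The 3 controls of that narrower comparison were spread widely for Nr3c2, with control 3 well above controls 1 and 4. Without control 3 the log2 difference among the remaining 7 libraries was -1.33, still called (edgeR adjusted p = 0.00124). Of the whole set of 10, leaving out control 2 alone moved the difference to -0.79 (adjusted p = 0.661), and leaving out withdrawal 2 alone moved it to -2.65 (adjusted p = 0.0274). Nr3c2 also shares exonic bases with Gm10649, a non-coding gene on the opposite strand, in the GENCODE M21 annotation. The strand setting of the authors' counting is not given in the sources used here, so reads of this pair cannot be told apart.

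Hsd11b1 (ENSMUSG00000016194) encodes an enzyme that regenerates active corticosterone from its inert keto form inside cells. Its CPM were 13.5, 40.5, 21.0 and 13.3 in the controls and 9.75, 29.1, 9.33, 8.61, 9.22 and 6.81 in withdrawal. The pattern over libraries resembled that of Nr3c2, with control 2, withdrawal 2 and control 3 highest, in that order, and the groups overlapped through withdrawal 2. The log2 difference over 10 libraries was -0.86 ± 0.462 (edgeR adjusted p = 0.380). Without control 2 and withdrawal 2 the means were 15.9 ± 4.37 and 8.74 ± 1.16 CPM with no overlap, and Hsd11b1 was 1.82-fold lower (log2 -0.87 ± 0.175, adjusted p = 0.0140). Leaving out control 2 alone from the 10 gave -0.40 and leaving out withdrawal 2 alone gave -1.34 (edgeR adjusted p = 0.0450). It was the least abundant member by counts, with 128 to 744 per library.

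Fkbp5 (ENSMUSG00000024222) was lower in every withdrawal library than in any control. It stood at 58.6, 116, 69.5 and 65.05 CPM in controls 1 to 4, and at 19.1, 41.6, 20.5, 20.2, 21.8 and 20.2 CPM in withdrawal libraries 1 to 6. It was the only member whose groups did not overlap over 10 libraries, as was so for 3.31% of all genes tested, 1.69% lower and 1.62% higher. The means were 77.3 ± 26.2 (n = 4) and 23.9 ± 8.70 CPM (n = 6), a log2 difference of -1.69 ± 0.264 (edgeR adjusted p = 0.0447). Leaving out 1 library at a time kept the difference between -1.93 and -1.43, but the call held only without withdrawal 2 (adjusted p = 0.00272). Leaving out each of the other 9 libraries in turn, controls 1 to 4 or withdrawal libraries 1 and 3 to 6, gave adjusted p between 0.0536 and 0.148.

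Among the 8 libraries the 5 withdrawal values of Fkbp5 lay within 19.1 to 21.8 CPM, and the 3 controls within 58.6 to 69.5 CPM. The means were 64.4 ± 5.46 and 20.4 ± 0.958 CPM, a 3.17-fold lower level (log2 -1.66 ± 0.0702, edgeR adjusted p = 1.08e-05). The call held when each of the 8 libraries was left out, with log2 differences of -1.74 to -1.61. In the pair that lacked habenula transcripts, control 2 was 2.79-fold above withdrawal 2 for Fkbp5, 2.28-fold for Nr3c2, 1.39-fold for Hsd11b1 and 1.21-fold for Nr3c1. Those last ratios compare 1 library with 1 and have no replicate check. The makeup of control 2 and withdrawal 2 also differed. Choroid plexus markers summed to 82.0 and 13092 CPM, and blood markers to 30.5 and 637 CPM. Oligodendrocyte markers summed to 8543 and 14443 CPM, and hippocampal and cortical markers to 3176 and 741 CPM.

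**Figure D2:**
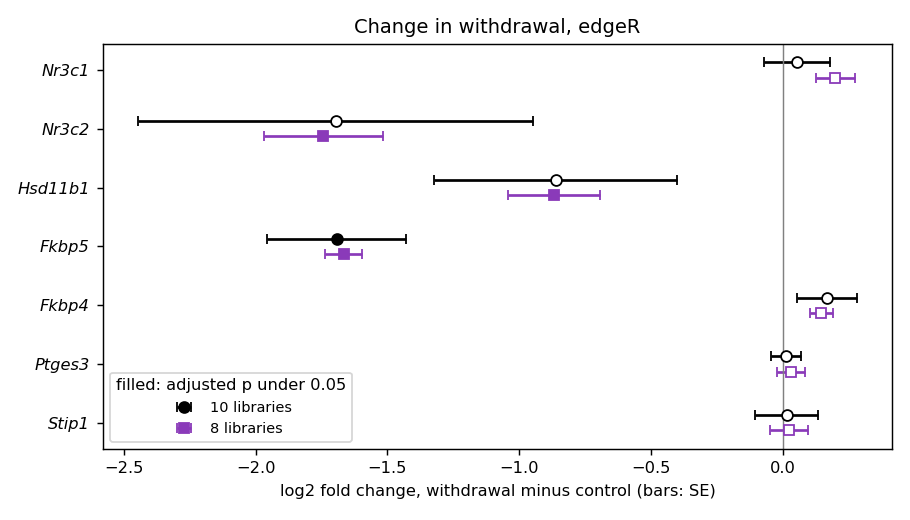
Log2 fold change of each member, withdrawal minus control, over 10 libraries (black circles) and over the 8 without control 2 and withdrawal 2 (purple squares). Bars are standard errors derived from edgeR's F statistic, and filled symbols had an adjusted p under 0.05. The estimates of Fkbp5, Nr3c2 and Hsd11b1 were close in the 2 sets, at -1.69 and -1.66, -1.70 and -1.74, and -0.86 and -0.87, while their standard errors shrank.

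The remaining cochaperones differed little between the groups. Fkbp4 (ENSMUSG00000030357), which encodes FKBP52, stood at 143, 115, 151 and 149 CPM in the controls and at 166, 121, 162, 163, 169 and 161 CPM in withdrawal. Control 2 and withdrawal 2 were the lowest of their groups, the opposite of their place for Fkbp5, and the groups overlapped through withdrawal 2 alone. The log2 difference was 0.17 ± 0.112 over 10 libraries (edgeR adjusted p = 0.469). Without them the means were 148 ± 4.19 and 164 ± 3.28 CPM and the groups did not overlap, as was so for 12% of genes in the higher direction and 23.2% in either. The log2 difference of 0.15 ± 0.0441 missed the threshold there (edgeR adjusted p = 0.0548).

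Ptges3 (ENSMUSG00000071072), the p23 gene, ranged from 119 to 123 CPM in the controls and from 113 to 133 CPM in withdrawal. Its log2 difference was 0.012 ± 0.0569 over 10 libraries (edgeR adjusted p = 0.931) and 0.033 ± 0.0520 over 8 (adjusted p = 0.711). Stip1 (ENSMUSG00000024966), whose product bridges HSP70 and HSP90, ranged from 172 to 229 CPM in the controls and from 147 to 222 CPM in withdrawal. Its log2 difference was 0.016 ± 0.121 over 10 libraries (edgeR adjusted p = 0.960) and 0.025 ± 0.0724 over 8 (adjusted p = 0.843), and its sign turned when some single libraries were left out. Withdrawal 2 was the lowest library for both genes. Neither group separated from the other for Ptges3 or Stip1.

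On a per-length scale (FPKM, which divide counts by gene length and depth), Stip1 was the most abundant member in controls at 90.7 ± 17.0 (n = 4). Ptges3 at 53.1 ± 4.89 and Fkbp4 at 49.0 ± 9.84 FPKM followed and did not differ beyond their spread. Nr3c2 came next at 23.3 ± 19.5 FPKM, a spread that covered the 12.6 ± 1.60 of Nr3c1, and then Fkbp5 at 7.74 ± 1.70 and Hsd11b1 at 4.84 ± 2.22. In withdrawal (n = 6) Stip1 was again highest at 96.07 ± 13.8 FPKM, with Fkbp4 at 57.5 ± 7.18 and Ptges3 at 56.3 ± 3.73. Nr3c1 stood at 13.9 ± 0.650 and Nr3c2 at 8.0 ± 9.30 FPKM. Hsd11b1 at 2.89 ± 1.93 and Fkbp5 at 2.57 ± 0.883 FPKM were lowest and not separable.

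Ratios of members within a library need no scaling between libraries and test whether 2 members changed unequally. The FPKM ratio of Fkbp5 to Fkbp4 was 0.121, 0.297, 0.136 and 0.129 in controls 1 to 4 and 0.0340, 0.102, 0.0372, 0.0366, 0.0381 and 0.0369 in withdrawal libraries 1 to 6. Every withdrawal library was below every control. The mean log2 ratio went from -2.66 ± 0.611 to -4.53 ± 0.605, a difference of -1.87 (2-sided exact permutation test over 210 splits, p = 0.00476, the smallest possible, 0.00714 adjusted over the 3 ratios). The ratio of Fkbp5 to its regulator Nr3c1 likewise separated all libraries, at log2 means of -0.71 ± 0.250 and -2.49 ± 0.398, a difference of -1.78 with the same exact p and adjusted p. The change of Fkbp5 thus differed from that of Fkbp4 and of Nr3c1.

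The balance of the receptors differed less firmly. The FPKM ratio of Nr3c1 to Nr3c2 was 1.15, 0.281, 0.528 and 1.23 in the controls and 3.76, 0.529, 3.41, 2.62, 3.82 and 3.13 in withdrawal. Withdrawal 2 lay among the controls and the other 5 withdrawal libraries lay above them all. The log2 difference was 1.85 (exact permutation p = 0.0429, adjusted 0.0429). It lost the threshold when control 2, control 3 or any one of withdrawal libraries 1, 3, 5 and 6 was left out (adjusted exact p between 0.0556 and 0.0952). In the 8 libraries the 3 differences were -1.81, -1.87 and 1.87, each without overlap and each at an exact permutation p of 0.0179, the smallest that 56 splits allow.

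**Figure D3:**
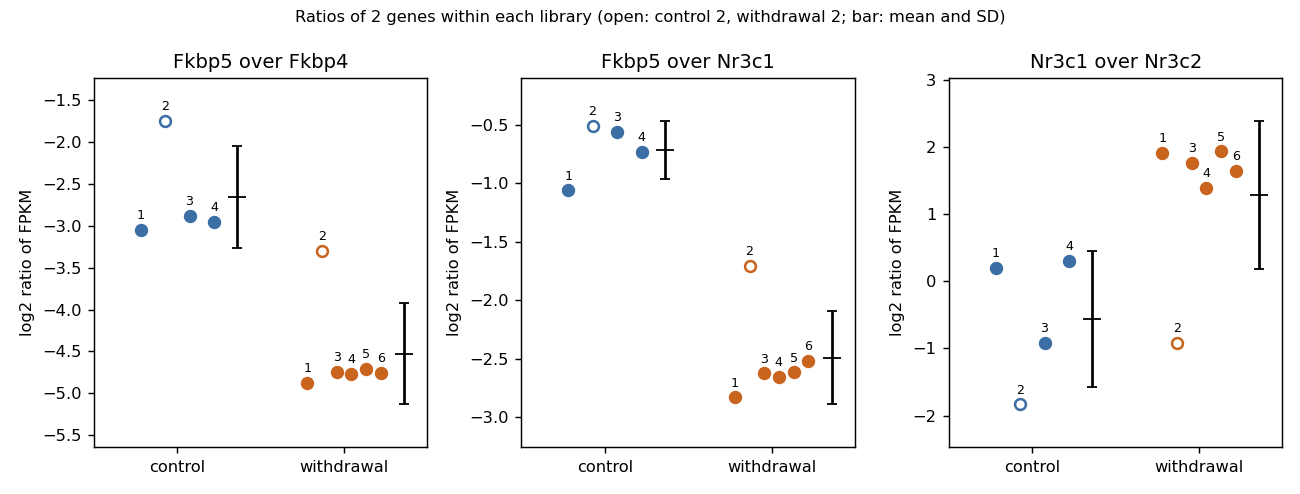
Log2 ratio of the FPKM of 2 members within each library, by group and replicate number, with the mean and SD of all libraries beside the points; control 2 and withdrawal 2 are open. The Fkbp5 ratios are lower in all 6 withdrawal libraries than in the 4 controls, and the Nr3c1 to Nr3c2 ratio of withdrawal 2, at -0.92, lies among the controls.

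Markers of other cell types moved with some members. A list of 10 genes of hippocampal and cortical excitatory neurons, 9 of them past the filter on low values and none at 0 in any library, summed over all 10 to 654, 3176, 1210 and 692 CPM in controls 1 to 4. In withdrawal libraries 1 to 6 it summed to 439, 741, 519, 569, 541 and 486 CPM. Without control 2 and withdrawal 2 the sums did not overlap, at 654 to 1210 against 439 to 569 CPM. The median log2 difference of the measured markers was -1.01. Of these markers 4 were called lower, beside 7.35% of all genes in those 8 libraries. These sums were highest in control 2, then control 3 and then withdrawal 2, whereas Nr3c2 and Hsd11b1 were highest in control 2, then withdrawal 2 and then control 3. Astrocyte markers (7 of 7 measured, none at 0) had the latter order, at 5361, 4620 and 3548 CPM in those libraries. GABAergic neuron markers (8 listed, 7 measured) were also highest there, at 911 CPM in control 2, 1120 in withdrawal 2 and 381 in control 3 against 93.5 to 258 CPM elsewhere, with Vip at 0 counts in withdrawal 1 and Dlx1 in withdrawal 3. Neurod6, a transcription factor gene from the hippocampal and cortical excitatory list, stood at 15.8, 342, 56.2 and 3.19 CPM in the controls. It was at 35.5 CPM in withdrawal 2 and at 1.06 to 1.95 CPM in the other withdrawal libraries.

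Not every gene on the hippocampal and cortical excitatory list followed the same course. Wfs1, abundant in hippocampal CA1 neurons, was 34.0 to 42.9 CPM in controls 1, 3 and 4 and 38.1 to 44.7 CPM in withdrawal libraries 1 and 3 to 6. In the 8 libraries, Neurod6 was 3.19 to 56.2 CPM in controls and 1.06 to 1.95 CPM in withdrawal, so that it separated the groups as Fkbp5 did. Astrocyte markers there summed to 3037 to 3548 CPM in controls and 2328 to 2704 CPM in withdrawal, with 3 called lower. Oligodendrocyte markers (6 of 6) summed to 10975 to 12186 against 5812 to 9921 CPM, with 5 called lower. Meningeal fibroblast markers (5 of 5) summed to 174 to 216 against 35.7 to 139 CPM, with 1 called lower. The GABAergic and endothelial lists also had 1 called lower each. Thalamic neuron markers (7 of 7) went the other way, with a median log2 difference of 0.68 and 1 called higher, beside 6.49% of all genes. Their sums overlapped, at 225 to 375 against 216 to 650 CPM. Blood markers (5 of 5) summed to 44.4 to 75.9 against 49.6 to 173 CPM. Choroid plexus markers (5 of 5) varied most, at 7238 to 10091 against 61.6 to 9581 CPM. The part of these cell types in the differences of Fkbp5, Nr3c2 and Hsd11b1 was not tested.

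**Figure D4:**
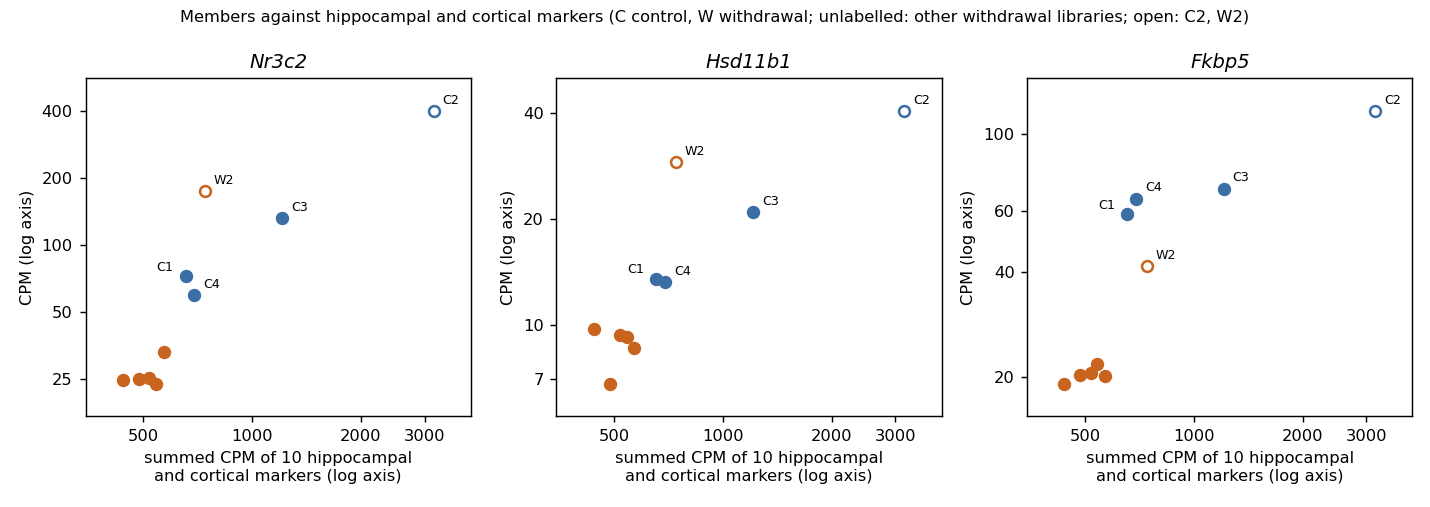
CPM of Nr3c2, Hsd11b1 and Fkbp5 (log axes) against the summed CPM of all 10 listed hippocampal and cortical markers (log axis) in each library; blue is control, orange withdrawal, and control 2 (C2) and withdrawal 2 (W2) are open. Withdrawal 2, at 741 CPM of markers, is above controls 1 and 4 for Nr3c2 and Hsd11b1 and below every control for Fkbp5.

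The genes whose centred log2 CPM profile over the 10 libraries lay nearest to Fkbp5 were Net1, with a root mean square gap of 0.172, then Per2 at 0.246, Pitpnm2 at 0.269, Smim3 at 0.278 and Klf13 at 0.286. The profile of Fkbp5 itself had a root mean square of 0.915. Net1 encodes a guanine nucleotide exchange factor and Per2 a core clock repressor. Nearest to Nr3c2, whose own root mean square was 1.36, were Rin1 at 0.146, Dlgap2 at 0.186, Kalrn at 0.202, Baiap2 at 0.207 and Ppp3ca at 0.214. Several of these encode synaptic proteins, such as the guanine exchange factor Kalirin (Kalrn) and the calcineurin catalytic subunit (Ppp3ca). The flat profile of Nr3c1, with a root mean square of 0.183, was nearest to Pink1 at 0.0546, Pdcd10 at 0.0575, Tasp1 at 0.0649, Adam22 at 0.0675 and Slc35f5 at 0.0709. These gaps are descriptions over libraries that share their makeup.

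The wider receptor machinery was examined through 8 lists of pathway genes. Of 23 measured genes of the HSP90 and HSP70 cycle, none was called over 10 libraries and the median log2 difference was -0.10, beside 0.0034 for all genes tested. Without the pair, 3 of the 23 were called, all lower, beside 13.8% of all genes called in those 8 libraries. They were the HSP70 gene Hspa1b (log2 -1.34 ± 0.361, edgeR adjusted p = 0.0384), its activator Dnajb1 (-0.20 ± 0.0564, adjusted p = 0.0423) and Cdc37l1 (-0.29 ± 0.0505, adjusted p = 0.00823). Hspa1b and its near-identical copy Hspa1a, at -0.66 with an adjusted p of 0.0628, may share reads and are uncertain singly. Leaving out 1 of the 8 libraries at a time kept the call of Cdc37l1 in all 8 fits, of Hspa1b in 3 and of Dnajb1 in 2. Without control 3, which had 19.99 CPM of Hspa1b against 7.16 in control 1 and 6.65 in control 4, the log2 difference of Hspa1b was -0.63 (edgeR adjusted p = 0.152). Its call was also lost without withdrawal 1, 3, 4 or 5, and that of Dnajb1 without control 3 or 4 or withdrawal 1, 3, 4 or 5. The median of the list over the 8 libraries was -0.079, beside 0.013 for all genes.

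Among 18 measured TPR cochaperones and other immunophilins, none was called over 10 libraries (median -0.036). Over the 8, Fkbp3 was higher, at 92.8 ± 4.15 against 120 ± 10.7 CPM (log2 0.36 ± 0.0763, edgeR adjusted p = 0.0163), as was Nudc (0.17 ± 0.0467, adjusted p = 0.0442). Fkbp1a, which encodes the classical FK506-binding immunophilin FKBP12, was lower (-0.39 ± 0.0974, adjusted p = 0.0288). The other 15 did not pass, and the median over the 8 libraries was 0.031. The 3 called of 18 stand beside the 13.8% of all genes. With 1 of the 8 libraries left out, the call of Nudc was lost in every fit (edgeR adjusted p = 0.0637 to 0.137), that of Fkbp1a without control 3 or withdrawal 3, 4 or 5, and that of Fkbp3 without control 3 or 4.

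Of 24 listed genes of corticosteroid metabolism and export, 12 were measured. None was called over 10 libraries (median -0.085). Abcb1a, the blood-brain barrier pump that exports glucocorticoids, was lower over the 8 libraries, at 41.2 ± 3.05 against 32.3 ± 1.42 CPM (log2 -0.36 ± 0.0679, edgeR adjusted p = 0.0117). Cyp7b1, a steroid hydroxylase, was also lower there, at 19.4 ± 5.04 against 8.96 ± 1.16 CPM (log2 -1.11 ± 0.168, adjusted p = 0.00511). H6pd, which supplies the cofactor for the Hsd11b1 enzyme, stood at 11.5 ± 0.604 and 8.26 ± 3.23 CPM and was not called (adjusted p = 0.243). The calls of Abcb1a and Cyp7b1 held with each of the 8 libraries left out. They were 2 of the 12, beside 13.8% of all genes, and the median of the list over the 8 libraries was -0.20.

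All 31 receptor coregulators on the list were measured and none was called over 10 libraries (median -0.10). Over the 8, the coactivator genes Ncoa1 (log2 -0.40 ± 0.0643, edgeR adjusted p = 0.00672) and Ncoa3 (-0.22 ± 0.0524, adjusted p = 0.0259) were lower. Nr2f1, an orphan nuclear receptor, was higher (0.65 ± 0.183, adjusted p = 0.0430). The list of other steroid and orphan receptors had 5 measured genes, with a median of 0.074 over 10 libraries and -0.079 over the 8. Among 16 genes of nuclear import and receptor movement the importin gene Ipo13 alone was called, lower by a log2 value of -0.28 ± 0.0626 (adjusted p = 0.0199). None of these was called over 10 libraries, and 1 called of 16 is below the 13.8% of all genes in the 8 libraries. With 1 of those 8 left out, the call of Ncoa1 held in every fit and that of Ipo13 was lost without control 3 or withdrawal 5. The call of Ncoa3 was lost without control 1, 3 or 4 or withdrawal 3 or 5, and that of Nr2f1 without control 3 or 4 or withdrawal 1, 4 or 5.

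Many known glucocorticoid-induced genes were lower in withdrawal. Of 19 measured, 10 passed the test over 10 libraries, all of them lower, beside 0.174% of all genes called lower. The mean of 18 of the 19 was lower, and the median log2 difference was -0.91. They were Plin4, a lipid droplet coat gene (-2.91, edgeR adjusted p = 0.00461), the metallothionein genes Mt2 (-1.11, 0.00461) and Mt1 (-0.71, 0.0296), Arrdc2 (-1.47), Sult1a1 (-1.33), the mTOR inhibitor gene Ddit4 (-1.03), Tsc22d3, which encodes the leucine zipper protein GILZ (-0.91), the NF-kappaB inhibitor gene Nfkbia (-0.80), the clock gene Per1 (-0.61) and Klf15 (-0.54). Leaving out withdrawal 2 raised the count to 17 and leaving out control 2 gave 9, whereas leaving out any other single library gave between 2 and 4. In the 8 libraries 17 of the 19 were called, all lower, at a median of -0.96 and beside 7.35% of all genes called lower. That count stayed at 17 with each of the 8 left out in turn. The list was drawn up with earlier results of these data known, so its direction is not independent evidence. Among 13 genes of the hypothalamic and pituitary stress axis only 3 were measured over 10 libraries, Crhbp, Crhr1 and Crhr2, and none was called.

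**Figure D5:**
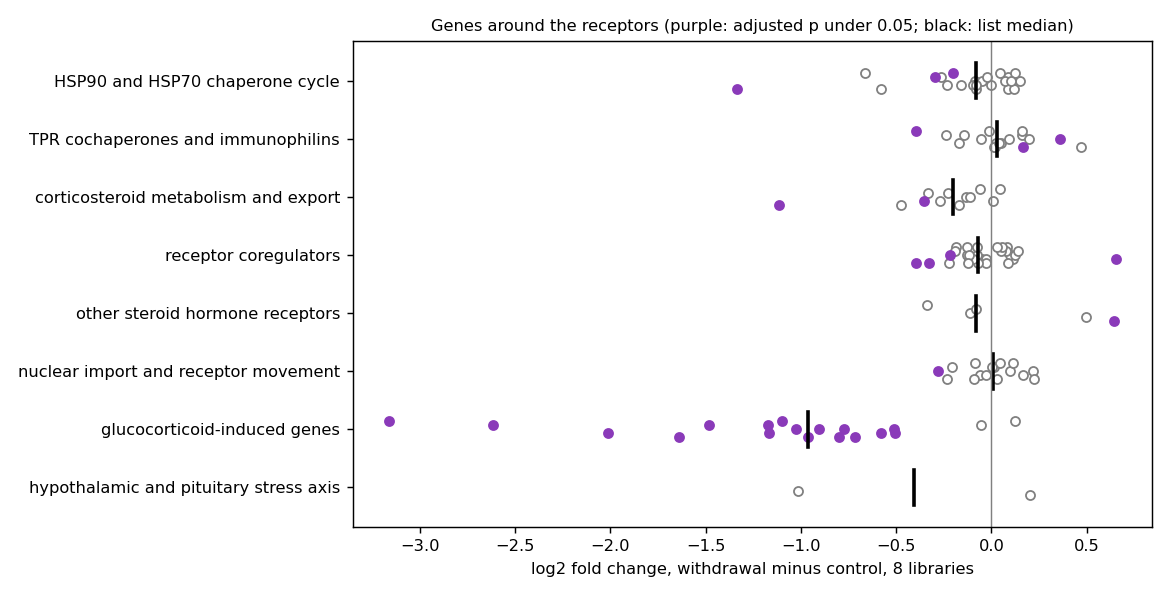
Log2 fold change (withdrawal minus control, 8 libraries) of each measured gene on 8 pathway lists; purple points had an edgeR adjusted p under 0.05, open points did not, and black bars are list medians. The 17 called glucocorticoid-induced genes all lie below 0 at a list median of -0.96, and the medians of the other lists run from -0.41 (stress axis, 2 genes) and -0.20 (metabolism and export) to 0.031 (TPR cochaperones).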

How the data were processed

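Poly-A or other selection, gene lengths, annotation release and strand setting are not given in the sources used here; per the labels' protocols, RNA was extracted with TRIzol from each sample and made into libraries with a VAHTS Universal kit. Software named in the submitters' processing notes comprises HISAT2 2.2.1, HTSeq 0.6.1 and cutadapt 1.9.1, and the build named there is mm39. The deposited matrix holds, per the file headers, raw read counts and FPKM of 56691 Ensembl genes in 10 libraries, both made by the authors. Symbols came from GENCODE M21, which named 52073 identifiers. Promoter windows are of another build than the counts and were used for sequence only.

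Groups came from the sample titles. Counts were tested with edgeR 4.0.16 in R 4.3.3 (quasi-likelihood, TMM scaling) over genes whose FPKM averaged 1 or more. The 2-sided p-values were adjusted over all genes tested (Benjamini-Hochberg, threshold 0.05). A prior count of 2 entered only the log2 CPM behind the profile gaps and the deviations of same-numbered libraries. Standard errors of the edgeR differences were derived as the absolute log2 difference over the square root of the test's F statistic. CPM were computed with TMM-scaled library sizes. The p-values measure the spread between these samples. Ratios used FPKM and exact permutation tests (NumPy 2.4.6). Alternatives were the 8 libraries, each replicate left out, DESeq2 1.42.0, limma 3.58.1 on log2(FPKM + 1), RLE scaling, no filter, an FPKM average of 5 or more and a replicate block; leaving out each of the 8 libraries was added after the data were seen. The edgeR steps were tested on simulated counts with known folds. No simulated library was given a different makeup, so that test does not cover the effect of control 2 and withdrawal 2.

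The members and lists were chosen with earlier results of these data known. Named were all members, every list gene called over 10 libraries or up to 4 per list by smallest p, and the 5 nearest profiles to Fkbp5, Nr3c1 and Nr3c2. List genes called only over the 8 libraries (Cdc37l1, Fkbp1a, Ncoa3, Nr2f1 and Ipo13) and Zbtb16 and Sgk1 were named after their values were seen. Some list genes are not reported here.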

Additional observations from a re-analysis of the deposited data

Results flagged for a closer look

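In groups of 4 or 6 libraries, a library was singled out where its gap to the nearest other exceeded Dixon's 95% critical value. Of 20 groups tested, 9 met this, where chance gives about 1 in 20, and withdrawal 2 or control 2 was the library each time. Withdrawal 2 was high for Nr3c2 at 176 CPM, for Fkbp5 at 41.6 CPM and for Hsd11b1 at 29.1 CPM. It was low for Fkbp4 at 121 CPM and for Stip1 at 147 CPM. Its log2 FPKM ratios also stood apart, at -3.30 for Fkbp5 over Fkbp4, -1.71 for Fkbp5 over Nr3c1 and -0.92 for Nr3c1 over Nr3c2. Control 2 stood apart for Fkbp5 over Fkbp4 at -1.75. Even so, withdrawal 2 was below every control for Fkbp5 and for both of its ratios.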

How the results depend on the processing

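Without control 2 and withdrawal 2, 2075 genes were called in place of 31, and 31 pathway list genes in place of 10. With 1 library left out at a time the counts ran from 4 to 901 and from 2 to 22, and within the 8 libraries from 830 to 2894 and from 21 to 39. DESeq2 called 380 and 19, limma 12 and 4, the filter at an average FPKM of 5 gave 17 and 6, and the replicate block gave 0 and 0 (1914 genes at an unadjusted p under 0.05, edgeR). No filter gave 21 genes and RLE scaling 32.

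Over 1 library left out, log2 differences ran from -1.93 to -1.43 for Fkbp5, -2.65 to -0.79 for Nr3c2, -1.34 to -0.40 for Hsd11b1, -0.027 to 0.22 for Nr3c1, -0.012 to 0.027 for Ptges3 and -0.046 to 0.0997 for Stip1. Within the 8 libraries they ran from -1.97 to -1.33 for Nr3c2, -0.99 to -0.62 for Hsd11b1, 0.15 to 0.27 for Nr3c1 (called without control 1, adjusted p = 0.0494), -0.028 to 0.12 for Stip1, 0.0054 to 0.048 for Ptges3 and -1.74 to -1.61 for Fkbp5. Nr3c2 (-1.74) and Hsd11b1 (-0.87) were called over the 8. Fkbp5 was called by DESeq2 (adjusted p = 1.54e-06), limma (0.0393), with RLE scaling (0.0422) and with no filter (0.0394). Fkbp5 and Hsd11b1 fell below the mean FPKM of 5 and were not tested there. The log2 ratio difference of Nr3c1 over Nr3c2 ran from 1.43 to 2.29.

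Deviations of same-numbered libraries correlated at 0.029, 0.31, -0.13 and 0.28 for replicates 1 to 4, and 1 of 4 matched its own number best. That one was replicate 2, whose libraries are control 2 and withdrawal 2. So few pairs cannot show whether the replicate numbers mark a pairing or a shared batch. With the replicate block Fkbp5 was -1.64 (adjusted p = 0.0595) and Stip1 -0.016. The block gave log2 ratio differences of -1.76 (Fkbp5 over Fkbp4), -1.74 (Fkbp5 over Nr3c1) and 1.60 (Nr3c1 over Nr3c2) over 4 pairs, where 0.125 is the smallest exact p. Of the other named genes, Esrrg turned to -0.079 over the 8 libraries. Leaving out a library turned Esrrg (-0.074 to 0.24, and -0.18 to 0.066 within the 8), Pgr (-0.051 to 0.47, and 0.36 to 0.67), Crhr2 (-0.63 to 0.23, and -1.68 to -0.75) and Crhr1 (-0.22 to 0.43). Within the 8 it also turned Srd5a3 (-0.14 to 0.0084, and from -0.25 within the 10) and Esrra (-0.21 to 0.0012, and from -0.25 within the 10). Of these, Pgr was called in 2 fits within the 8 (lowest adjusted p = 0.0334) and Crhr2 in 1 (0.0335). The cause of these changes was not tested.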

Other observations

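Some pathway list genes differed widely between control 2 and withdrawal 2. Crhbp, which encodes the binding protein of corticotropin-releasing factor, was 12.3-fold higher in control 2 than in withdrawal 2, Nr4a1 6.65-fold and Hspa1b 6.11-fold. Plin4 was 3.67-fold higher. Crhr2 went the other way, at 0.0393 of its level in withdrawal 2. Each of these ratios compares 1 library with 1, and control 2 and withdrawal 2 also differed in their cell type markers. Among the glucocorticoid-induced genes called over the 8 libraries alone, Zbtb16 fell from 60.5 ± 11.9 to 9.86 ± 3.37 CPM (edgeR adjusted p = 5.14e-04) and the kinase gene Sgk1 from 257 ± 56.1 to 64.0 ± 17.9 CPM (adjusted p = 8.86e-04).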
